A study of Homo sapiens with 8 samples.

Results

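RAN, a small GTPase, and RCC1, its guanine nucleotide exchange factor, were followed through a pooled knockout screen by counting the sgRNAs against them. They were taken as the rows of the deposited sgRNA tables that name either gene, which gave 10 sgRNAs for RAN and 10 for RCC1, 20 of 7855 sgRNAs and 2 of 779 targeted genes. The library also held 80 non-targeting sgRNAs. Each sgRNA is given here by its number in the deposited tables.

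The screen was run in T1-160 cells, a Taxol-resistant derivative of SUM159PT, a triple-negative breast cancer cell line. All groups carried Cas9 and EPIKOL, a lentiviral knockout library aimed mainly at chromatin regulators, and all were selected for 4 days with 5 µg/ml puromycin together with 20 µM verapamil, a blocker of drug efflux pumps. The AP group (after puromycin, 2 libraries, replicates 1 and 3) was the starting point, and the DMSO group (3 libraries) and the Taxol group (3 libraries, 160 nM) were collected after 16 population doublings. Taxol, or paclitaxel, stabilises microtubules and disturbs the mitotic spindle. The model is a single resistant derivative grown in culture, and the plasmid pool was not analysed here, so any sgRNA lost before the AP collection is not seen in these comparisons. The tables hold sgRNA counts in genomic DNA, which give neither the expression of a gene nor the identity of the cells. Nothing in the labels says whether the replicates were separate infections or cultures. The p-values of the linear-model (limma) and permutation tests below measure only the spread between these libraries, which may be technical. The rank-based gene p-values instead compare the sgRNAs of a gene, taken as independent, with all sgRNAs of the library.

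Ran cycles between a GTP-bound and a GDP-bound form. RCC1 sits on chromatin and loads Ran with GTP there, so that RanGTP is high around chromosomes and low in the cytoplasm. This gradient directs nuclear import and export in interphase, through importin-β (KPNB1) and the exportins, and promotes spindle assembly and the rebuilding of the nuclear envelope around mitosis. Both genes are needed for growth in most human cell lines.

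The 8 libraries held 2045986 to 11771418 reads, or 260.5 to 1499 reads per sgRNA. Among the members, the count of a single sgRNA ran from 19 to 1652 reads for RAN and from 31 to 3973 reads for RCC1, and no member sgRNA was at 0 in any library. Intervals below cover the spread between libraries, and PCR reads without molecular identifiers are not independent molecules.

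sgRNAs against RAN were scarcer than non-targeting sgRNAs in every library, and the gap was wider at the end of culture than at its start. The level is given here as the mean log2 count of the 10 sgRNAs minus the mean log2 count of the non-targeting sgRNAs of the same library. For RAN this difference was −0.70 and −0.76 in the AP libraries, −1.78, −1.69 and −1.18 in the DMSO libraries and −1.79, −1.48 and −2.04 in the Taxol libraries. The group means were −0.73 ± 0.04 (SD, n = 2) in AP, −1.55 ± 0.32 (SD, n = 3) in DMSO and −1.77 ± 0.28 (SD, n = 3) in Taxol. All 6 late libraries lay below both AP libraries, while DMSO and Taxol overlapped. The median targeted gene also lost ground on this measure, as given below, and the share of genes so separated was not counted.

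For RCC1 the same difference was 0.09 and −0.28 in AP, −1.27, −0.51 and −1.01 in DMSO and −1.24, −0.96 and −0.86 in Taxol. The group means were −0.10 ± 0.26 (SD, n = 2), −0.93 ± 0.39 (SD, n = 3) and −1.02 ± 0.20 (SD, n = 3). RCC1 sgRNAs therefore started near the non-targeting level, and all 6 late libraries again lay below both AP libraries, DMSO replicate 2 being the closest to them. The median targeted gene also lost ground to the non-targeting sgRNAs. Its mean log2 count was 8.68 and 8.73 in AP, 8.75, 8.91 and 8.73 in DMSO and 8.96, 8.76 and 8.85 in Taxol. The non-targeting mean rose from 8.66 and 8.95 in AP to 9.15, 9.34 and 9.13 in DMSO and 9.44, 9.22 and 9.50 in Taxol. The share of all genes with all 6 late libraries below both AP libraries on this measure was not counted. The separation therefore cannot be called particular to RAN or RCC1. RAN also stood low among all targeted genes from the start. Between 11.3% and 17.1% of genes had a lower mean level than RAN in AP, 5.26% to 15.7% in DMSO and 4.49% to 8.34% in Taxol. For RCC1 the corresponding ranges were 44.8% to 56.0%, 14.4% to 45.1% and 21.1% to 39.5%.

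The comparison of DMSO with AP addressed which knockouts were lost from the resistant cells during growth without drug. On the scaling of the deposited table, the mean log2 normalized count of the RAN sgRNAs was 8.31 and 8.53 in AP and 7.71, 8.00 and 8.28 in DMSO, so the groups did not overlap. The log2 fold change was −0.42 ± 0.25 (SD between libraries), with 6 of 10 sgRNAs lower in DMSO. Robust rank aggregation (RRA), which asks whether the sgRNAs of a gene crowd towards the depleted end of the ranking of all sgRNAs, gave an adjusted p of 0.129 for RAN. RAN was therefore not called depleted at an adjusted p of 0.05, a threshold passed by 2.05% of the 779 genes for depletion and 0.128% for enrichment. Its unadjusted RRA p was 0.00578, and 11.8% of genes had an unadjusted p below 0.05. That p rests on the ranks of its sgRNAs. Limma on gene means, which uses the spread between libraries, gave an unadjusted p of 0.0945. Genes whose DMSO libraries all lay below both AP libraries made up 14.1% of the total.

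The RCC1 sgRNAs averaged 9.10 and 9.01 (mean log2 normalized count) in AP and 8.22, 9.19 and 8.45 in DMSO. DMSO replicate 2 was above both AP libraries, and the groups overlapped. The log2 fold change of RCC1 was −0.43 ± 0.41 (SD between libraries), with 6 of 10 sgRNAs lower, an RRA p of 0.0194 and an adjusted p of 0.240. Without DMSO replicate 2 it was −0.72 (RRA adjusted p = 0.137), and without DMSO replicate 1 it was −0.23 (RRA adjusted p = 0.232). For RAN, the value was −0.28 without DMSO replicate 1. Set against the spread between libraries by limma on the gene means, the values had 95% intervals of −0.92 to 0.08 for RAN and −0.98 to 0.11 for RCC1, both of which include 0.

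The scaling set the zero of these changes. Non-targeting sgRNAs had a mean log2 fold change of 0.40 in DMSO against AP on the deposited scaling, and the median over all targeted genes was 0.15. When each library was centred on its non-targeting sgRNAs, a fit on gene means that was added after the data had been seen, RAN fell by 0.82 (limma adjusted p = 0.0148) and RCC1 fell by 0.83 (limma adjusted p = 0.00943). RRA with the same centring gave the same fold changes but no call, at an adjusted p of 0.138 for RAN and 0.271 for RCC1, so the call rested on the change of test and scaling together. The fit on gene means called 17.3% of all genes depleted, so RAN and RCC1 were among many genes that lost ground to the non-targeting sgRNAs. The median of all genes was −0.25 on that scaling, and on either scaling RAN stood 0.57 and RCC1 stood 0.58 below the median gene, which makes them the genes at rank 86 and rank 84 from the lowest of 779.

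In Taxol against AP, which combines growth and drug, the picture for RAN was alike in size. The mean log2 normalized count of RAN was 7.92 and 8.15 in AP and 7.62, 7.73 and 7.44 in Taxol, with no overlap. The log2 fold change was −0.44 ± 0.15 (SD between libraries), with 7 of 10 sgRNAs lower, an RRA p of 0.00424 and an adjusted p of 0.0735. Adjusted p values under 0.05 were reached by 4.62% of genes for depletion and by 1.41% for enrichment, unadjusted ones for depletion by 13.1%, and 14.5% of genes had all Taxol libraries below both AP libraries. RCC1 was at 8.71 and 8.62 in AP and at 8.16, 8.25 and 8.62 in Taxol. Taxol replicate 3 was just below the lower AP library, so that the groups were separated by less than 0.01. The log2 fold change of RCC1 was −0.32 ± 0.20 (SD between libraries), with 6 of 10 sgRNAs lower, an RRA p of 0.0676 and an adjusted p of 0.433.

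The limma 95% intervals were −0.88 to 0.004 for RAN and −0.78 to 0.14 for RCC1. Centred on the non-targeting sgRNAs, whose mean log2 fold change here was 0.60, RAN fell by 1.04 (limma adjusted p = 0.00488) and RCC1 fell by 0.92 (limma adjusted p = 0.00860), in a fit that called 26.4% of all genes depleted, whereas RRA with that centring gave an adjusted p of 0.106 for RAN and 0.429 for RCC1. The median of all genes moved from 0.20 to −0.40 with this centring. RAN held rank 57 and RCC1 rank 93 from the lowest of 779 genes. The comparisons with AP share the same AP libraries, so their values are not independent of each other.

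Taxol was set against DMSO to find knockouts that sensitise the resistant cells to the drug. Neither RAN nor RCC1 passed the test. RAN was at 7.30, 7.49 and 7.85 (mean log2 normalized count) in DMSO and at 7.51, 7.62 and 7.32 in Taxol. RCC1 was at 7.80, 8.67 and 8.03 in DMSO and at 8.05, 8.14 and 8.50 in Taxol. For both genes the Taxol values lay within the range of the DMSO values. The log2 fold change was −0.06 ± 0.23 for RAN (SD between libraries, RRA adjusted p of depletion = 1, limma 95% interval −0.51 to 0.38) and 0.06 ± 0.36 for RCC1 (RRA adjusted p of enrichment = 0.999, limma 95% interval −0.40 to 0.53). Of all genes, 0.257% were called depleted and 0.128% enriched, 4.75% had an unadjusted p of depletion below 0.05, and 4.49% had all Taxol libraries below all DMSO libraries. Centred on the non-targeting sgRNAs, limma on gene means gave −0.22 for RAN and −0.09 for RCC1 and called 0.513% of genes depleted, neither of them among these. Both limma intervals include 0, and with 3 libraries in each group true changes anywhere within them remain possible.

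No difference between RAN and RCC1 in the size of their change was detectable. RAN had the lower mean level in every library, by 0.17 to 1.19 on the log2 scale. The change of RAN minus the change of RCC1 was 0.01 in DMSO against AP (two-sided exact permutation test over libraries, p = 1), −0.12 in Taxol against AP (exact permutation p = 0.8) and −0.13 in Taxol against DMSO (exact permutation p = 0.6). The smallest p these designs allow is 0.1, so no such difference could have passed 0.05.

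The mean of each gene hid sgRNAs that moved far apart. In DMSO against AP the log2 fold changes of the 10 RAN sgRNAs ran from −1.72 to 1.14, with an SD over sgRNAs of 1.03, and those of RCC1 ran from −2.47 to 1.46, with an SD of 1.15. The median gene had an SD of 0.65, and 94.1% of genes had a smaller spread than RAN and 97.7% a smaller spread than RCC1. Against AP in Taxol, the SD was 0.89 for RAN and 0.84 for RCC1, against 0.68 for the median gene. In Taxol against DMSO the RAN sgRNAs moved little apart, with an SD of 0.40 that only 4.75% of genes undercut, and RCC1 had an SD of 0.67. No sgRNA of the 7855, and so none of RAN or RCC1, passed an adjusted p of 0.05 in any of the 3 comparisons (limma per sgRNA), and the sgRNAs of RAN and RCC1 did not pass under any alternative either. At an unadjusted p below 0.05 in DMSO against AP, 3.65% of sgRNAs were lower and 3.21% higher, in Taxol against AP these shares were 3.90% and 2.24%, and in Taxol against DMSO 1.55% and 2.01%. At that level RAN had 1 sgRNA lower in each comparison with AP, and RCC1 had 2 lower and 1 higher in DMSO and 1 lower in Taxol. With libraries centred on the non-targeting sgRNAs, 7 of the 20 member sgRNAs were lower and 0 higher in DMSO against AP, beside 7.69% and 0.777% of all sgRNAs, and 8 were lower and 0 higher in Taxol against AP, beside 11.8% and 0.484%.

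Counts per library for the outlying sgRNAs are given on a scale common to all 8 libraries (reads divided by a median-ratio size factor). RCC1 sgRNA 7672 went from scaled counts of 368 and 204 in AP to 33.5, 73.1 and 47.7 in DMSO and to 61.7, 76.2 and 82.7 in Taxol. Every late library was lower than both AP libraries by a wide margin. On the table scaling its log2 fold change was −2.47 in DMSO (limma unadjusted p = 0.0025) and −1.88 in Taxol (limma unadjusted p = 0.00450).

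RCC1 sgRNA 7680 was the most abundant RCC1 sgRNA at the start, at 1614 and 859 in AP, and was at 441, 365 and 281 in DMSO and 509, 713 and 426 in Taxol. It too was below AP in all late libraries. Its log2 fold change was −1.73 in DMSO and −1.12 in Taxol. RCC1 sgRNA 7677 went the other way, from 496 and 536 in AP to 1345, 2616 and 814 in DMSO, and to 1744, 401 and 1129 in Taxol. Its DMSO libraries were all above AP (log2 fold change 1.46, limma unadjusted p = 0.0316), while its Taxol libraries overlapped with AP.

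Among the RAN sgRNAs, 7768 was at 282 and 213 in AP, at 37.5, 59.2 and 266 in DMSO and at 53.9, 83.5 and 85.1 in Taxol. Replicate 3 of DMSO remained within the AP range, whereas all Taxol libraries were below it (log2 fold change −1.73, limma unadjusted p = 0.00669). RAN sgRNA 7763 was at 133 and 262 in AP, 44.4, 75.7 and 113 in DMSO and 71.9, 111 and 80.3 in Taxol, and so was below AP in all 6 late libraries. RAN sgRNA 7769 was at 413 and 612 in AP, 577, 618 and 1605 in DMSO and 1291, 641 and 720 in Taxol. It was above AP in all Taxol libraries.

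In DMSO against AP, 3 RAN sgRNAs had all DMSO libraries below AP and none had all above, and for RCC1 these counts were 4 and 2. Over all sgRNAs, 12.0% lay below without overlap and 11.2% above. In Taxol against AP the counts were 5 below and 1 above for RAN and 4 below and 0 above for RCC1, beside 13.6% and 12.4% of all sgRNAs. In Taxol against DMSO, RAN had 1 below (7764) and 1 above (7766), and RCC1 had 1 below (7674), beside 4.26% and 4.76% of all sgRNAs. The sgRNAs of a gene share their target and are not replicates of a condition.

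The summed counts of the genes, which weight abundant sgRNAs most, differed less between AP and the late groups than the means of the logs did. The scaled counts of all RAN sgRNAs summed to 3372 and 3759 in AP, 3159, 2897 and 4877 in DMSO and 3566, 2914 and 2607 in Taxol. Those of RCC1 summed to 5082 and 4509 in AP, 3692, 7448 and 3972 in DMSO and 4864, 4076 and 5485 in Taxol. On the table scaling, the log2 fold change of the summed counts in DMSO against AP was −0.01 for RAN and −0.01 for RCC1, and in Taxol against AP it was −0.23 for RAN and 0.01 for RCC1. The sums thus overlapped between AP and DMSO for both genes. The share held by the 2 most counted sgRNAs of RAN was 37.4% and 37.6% in AP and 42.2% to 61.7% in the late libraries, where 7769 and 7770 were the 2 in all libraries but DMSO replicate 1. For RCC1 that share was 44.8% and 37.2% in AP and 42.0% to 61.5% in the late libraries. The median gene with 10 sgRNAs went from 36.5% to 38.1% in AP to 42.2% to 55.0% in the late libraries.

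Of 50 other genes of the Ran cycle and nuclear transport that were listed, only KPNB1 was in the library. KPNB1 encodes importin-β, the import receptor that RanGTP releases from its cargo. Its mean log2 normalized count was 8.37 and 8.55 in AP and 8.35, 7.96 and 8.09 in DMSO, and its log2 fold change was −0.33 ± 0.18 (SD between libraries, RRA adjusted p = 0.450, 8 of 10 sgRNAs lower). Its change in Taxol against AP was −0.42 ± 0.12 (RRA adjusted p = 0.275), and in Taxol against DMSO −0.14 ± 0.19. The groups did not overlap in either comparison with AP, where 14.1% of all genes lay below without overlap in DMSO and 14.5% in Taxol. The closest libraries in DMSO against AP were at 8.37 and 8.35. KPNB1 was not called in any comparison. Of 17 genes with RCC1-like repeats, only NEK9, a mitotic kinase with an RCC1-like domain, was present. Its log2 fold change was 0.12 ± 0.13 in DMSO against AP, 0.33 ± 0.12 in Taxol against AP and 0.16 ± 0.14 in Taxol against DMSO, and it was not called either. In Taxol against AP its libraries did not overlap, at 8.72 and 8.71 in AP and 9.20, 8.92 and 9.00 in Taxol. The share of all genes above without overlap was not counted, and the median log2 fold change over all genes there was 0.20.

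RAN, RCC1 and KPNB1 belonged to a block of 38 genes that were numbered after ZZZ3, the end of the alphabetical run of the library, and before the non-targeting sgRNAs. The block also held ribosomal proteins, splicing factors and RNA polymerase II subunits, together with PCNA, the sliding clamp of DNA replication, and the ATPase VCP. The block was picked out after the numbering had been seen. In DMSO against AP all 38 genes had a log2 fold change below 0 (median −0.54, against 0.15 over all genes), and 4 were called depleted: TRMT112, a subunit of methyltransferases, the ribosomal proteins RPS18 and RPL11, and the splicing factor PRPF19. Over all genes, 2.05% were called depleted in that comparison. Against AP in Taxol, again all 38 were below 0 (median −0.33, against 0.20), and 7 were called depleted, beside 4.62% of all genes. Over all 779 genes, 286 were below 0 in DMSO against AP, 252 in Taxol against AP and 350 in Taxol against DMSO. All 38 also stayed below 0 in both comparisons with AP when centred on the non-targeting sgRNAs. With that centring the median over all genes was itself −0.25 in DMSO and −0.40 in Taxol. In Taxol against DMSO 13 were below 0 (median 0.10, against 0.03), or 23 when centred on the non-targeting sgRNAs (median −0.05, against −0.12), and 0 passed the RRA test, with 2 depleted and 3 enriched at an unadjusted p below 0.05, beside 4.75% and 6.55% of all genes. RAN was at rank 26 from the lowest of the 38 in DMSO against AP, at rank 13 in Taxol against AP and at rank 9 in Taxol against DMSO. RCC1 was at ranks 25, 21 and 17. Both genes thus lay in the middle or towards the weaker end of the block in DMSO.

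A list of core-essential genes, of which 18 of 65 were in the library and most of those also in the block, gave a like picture. In DMSO against AP 17 of 18 were below 0 (beside 286 of 779 genes). Of the 18, 4 were called depleted (beside 2.05% of all genes) and the median was −0.54. The lowest were RPS18 at −1.11, the nucleolar methyltransferase FBL at −1.0, RPL11 at −0.94 and PRPF19 at −0.82, and the highest were SF3B3 at −0.09 and SUPT6H at 0.11. In Taxol against AP 17 of 18 were below 0, beside 252 of 779 genes, and 5 were called depleted, beside 4.62% of all genes (median −0.35). In Taxol against DMSO 5 were below 0, beside 350 of 779 genes. RRA called 0, and 1 was enriched at an unadjusted p below 0.05, beside 6.55% of all genes. The median was 0.12, or −0.03 when centred on the non-targeting sgRNAs.

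Some mitotic and spindle checkpoint kinases act on the spindle that RanGTP helps to build. The listed kinases lay on both sides of 0 in each comparison on the deposited scaling. Of 16 listed names, with HASPIN and GSG2 naming the same kinase, 10 were present. RRA called 0 of these 10 in each of the 3 comparisons. In DMSO against AP 4 were below 0, beside 286 of 779 genes. The median was 0.12, and a single gene, BUB1, was enriched at an unadjusted p below 0.05, as were 8.09% of all genes. CDK1 at −0.36, VRK1 at −0.27, CHEK1 at −0.26 and AURKB at −0.20 were the lowest, and AURKC at 0.41 and BUB1 at 0.46 the highest. In Taxol against AP the median was −0.10 and 2 were depleted and 0 enriched at an unadjusted p below 0.05, beside 13.1% and 8.34% of all genes. The median was −0.08 in Taxol against DMSO, with 1 depleted at that level, beside 4.75% of all genes. Centred on the non-targeting sgRNAs, the kinases had medians of −0.28 in DMSO against AP, −0.70 in Taxol against AP and −0.23 in Taxol against DMSO, with medians over all genes of −0.25, −0.40 and −0.12.

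Over the 8 libraries, the genes whose mean log2 RPM (reads scaled to library size) followed RAN most closely were IMP3 (Pearson r = 0.984), a component of ribosome biogenesis, RPS15A (r = 0.982), a ribosomal protein, and APEX1 (r = 0.982), a base excision repair nuclease. For RCC1 they were VCP (r = 0.978), VPS72 (r = 0.973), a subunit of chromatin remodelling complexes, and FBL (r = 0.960). High values were common, as the median gene reached r = 0.726 with RAN and 0.649 with RCC1. What the libraries share was not tested. RAN and RCC1 correlated at r = 0.803, which put RCC1 at place 266 among the genes most like RAN. With median-ratio scaling, IMP3 (r = 0.929) and RPS15A (r = 0.925) still led for RAN and VCP (r = 0.947) and VPS72 (r = 0.912) for RCC1, while NFYC (r = 0.895) and CHEK1 (r = 0.901) took the third places. On that scaling the median gene had r = −0.243 with RAN and 0.0542 with RCC1, and the correlation of RAN with RCC1 was 0.355. All are descriptions over 8 libraries of 3 groups, with no test.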

How the data were processed

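Genomic DNA amplicons of sgRNAs were counted in 8 libraries (2 AP, 3 DMSO, 3 Taxol). The deposited tables, made by the authors with MAGeCK 0.5.8 per the submitters' processing notes, give normalized counts per sgRNA, scaled separately for each comparison, each cell listing a group's libraries side by side, read here in the order of the replicate numbers in the table names. The AP entries hold a middle value for which the labels used here give no sample, so 2 value columns (1 in each table with AP) were not used. The deposited gene tables and the fold change, score and p-value columns hold the authors' own comparisons and were not used. How reads were trimmed and mapped is not given in the sources used here. The row that names no gene (normalized counts of 0) was left out.

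Reads were recovered from the steps between values, and 99.1% to 99.99% of values were whole within 0.1 read. Levels across groups used these reads over median-ratio size factors. Tests were made within each table with R 4.3.3 and limma 3.58.1: log2(normalized count + 1), no filter on low counts, a trended fit per sgRNA, then RRA per gene on the lowest 25% of ranks with an exact one-sided p in each direction and Benjamini-Hochberg adjustment over 779 genes (threshold 0.05). Fold changes on this scale understate those of low counts. Scripts were tested on simulated data. RAN and RCC1, the gene lists and the tests were chosen with earlier results of these data known. Named genes were the members, measured members of the transport and RCC1-like lists, the 4 lowest and 2 highest of the other lists in DMSO against AP, and the 3 genes most correlated with each member; the depleted genes of the 38-gene block and the single sgRNAs were chosen after their values were seen.

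Taxol and DMSO libraries with the same number deviated together (correlations of 0.169, 0.131 and 0.206, against −0.14 to −0.05 for other pairs), so these numbers were taken to pair the samples. The main tests, SDs, intervals and permutation tests did not use this pairing. It entered only through the replicate block, an alternative. Alternatives were other tests, pseudocounts, filters, scalings, a replicate block, a sum or median over sgRNAs and leaving out each library.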

Additional observations from a re-analysis of the deposited data

How the results depend on the processing

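In the comparisons with AP, RAN and RCC1 kept a value below 0 in all alternatives except the sum over sgRNAs for RCC1 in Taxol against AP (0.013). They stayed above an adjusted p of 0.05 in all but limma on gene means centred on the non-targeting sgRNAs, added after the data had been seen. RAN in Taxol against AP ranked by fold change did so only narrowly (RRA adjusted p = 0.0501). The centred limma fit gave −0.82 for RAN and −0.83 for RCC1 in DMSO against AP and −1.04 and −0.92 in Taxol against AP. In that order, the sum over sgRNAs, also added later, gave −0.0097, −0.0065, −0.23 and 0.013, voom on recovered reads, likewise added, gave −0.84, −0.80, −1.22 and −1.11, and the median over sgRNAs moved RAN in Taxol against AP to −0.60. Without 1 library, RAN ranged from −0.56 to −0.28 and RCC1 from −0.72 to −0.23 in DMSO against AP, and from −0.55 to −0.33 and −0.46 to −0.23 in Taxol against AP, with a lone AP library assumed to vary like the others. Adjusted p values over all alternatives spanned 0.0148 to 0.645 and 0.00943 to 0.536, then 0.00488 to 0.359 and 0.00860 to 0.643. In Taxol against DMSO the signs were not stable. RAN ranged from −0.19 to 0.090 without 1 library, turning positive without DMSO replicate 3 (0.090) or Taxol replicate 3 (0.016), and was −0.22 when centred on non-targeting sgRNAs, −0.32 with voom on recovered reads and −0.26 as a sum. RCC1 ranged from −0.12 to 0.32, turning negative without DMSO replicate 1 (−0.12), DMSO replicate 3 (−0.0067) or Taxol replicate 3 (−0.072), and was −0.092 when centred on non-targeting sgRNAs (with either test), −0.24 with voom on recovered reads, −0.032 as a median and −0.027 as a sum. RAN minus RCC1 ranged from −0.21 to 0.29, −0.27 to 0.10 and −0.41 to 0.10 without 1 library in DMSO against AP, Taxol against AP and Taxol against DMSO. It changed sign in DMSO against AP without AP replicate 1 (−0.14), DMSO replicate 1 (−0.05) or DMSO replicate 3 (−0.21), in Taxol against AP without AP replicate 3 (0.04) or Taxol replicate 3 (0.10), and in Taxol against DMSO without DMSO replicate 3 (0.10) or Taxol replicate 3 (0.09). The cause was not tested.

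The replicate block changed no call for RAN or RCC1. In Taxol against DMSO the values stayed at −0.06 and 0.06 (adjusted p = 1 for both). In the comparisons with AP, where the samples share only a number (correlations of −0.02 to 0.04), the block gave −0.42 for RAN and −0.72 for RCC1 in DMSO and −0.50 and −0.28 in Taxol. Counts of depleted genes, 16 in DMSO against AP, 36 in Taxol against AP and 2 in Taxol against DMSO, became 135, 206 and 4 with limma on gene means centred on non-targeting sgRNAs, while limma on gene means alone gave 0 in Taxol against AP and in Taxol against DMSO, ranking by fold change gave 26 in DMSO against AP, and leaving out 1 library gave 10 to 21, 2 to 30 and 0 to 1. Counts of enriched genes, 1, 11 and 1, ranged from 1 to 6, 1 to 11 and 1 to 3. The planned count test on recovered reads was not run, and voom was used instead. There were 2 AP libraries, and Taxol replicates 2 and 3 were the shallowest (2045986 and 2715017 reads). How far this limited the precision was not tested.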

Other observations

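Several member sgRNAs owed a group's level to a single library. RAN sgRNA 7762 had a scaled count of 444 in DMSO replicate 2, 11.5 times the next DMSO library. RCC1 sgRNAs 7673 and 7674 were at 673 and 969 in the same library, 4.8 and 4.6 times the next, and RAN sgRNA 7768 was 4.44 times higher in DMSO replicate 3 than in the next. In Taxol replicate 3, RCC1 sgRNA 7676 was at 1177, 5.89 times the next Taxol library. A gap of at least 3 times was also found in 14.8% of all sgRNAs in DMSO and 18.6% in Taxol, so 2 of 10 for RAN and 2 of 10 for RCC1 in DMSO and 0 and 1 of 10 in Taxol were close to the background. What set these libraries apart was not tested.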
